A study of Mus musculus with 5 samples.

Results

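The promoters of the cytosolic ribosomal protein genes drive the genes for the protein part of the ribosome, and they were described here by their open chromatin in naïve CD8+ T cells of WT and dKO mice. Members were the protein-coding genes of the mm9 annotation whose symbol is Rpl or Rps with a number and an optional letter or l suffix, together with Rplp0, Rplp1, Rplp2 and Rpsa, without pseudogenes and Rps6k genes. This rule gave 81 genes of 22380 protein-coding genes, 77 on autosomes and 4 on the X chromosome. A promoter peak was one whose summit, the position of its highest signal, lay within 1000 bp of any annotated transcript start of such a gene. The rule found 91 peaks of 31116 in the WT list and 92 of 25525 in the dKO list. A peak was counted as a ChrAcc (chromatin accessibility) site where its enrichment was at least 4-fold, its p at most 1e-05 and its q at most 0.05, which left 88 of 28472 WT sites and 90 of 24363 dKO sites.

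The data were DNase-seq of splenic naïve CD8+ T cells, in which short fragments freed from open chromatin by DNase I are sequenced, in 3 WT and 2 dKO replicates. All animals carried the hCD2-Cre transgene, which acts mainly once T cells have matured, and a Rosa26 GFP reporter that turns on where Cre has acted. WT animals had wild-type Tcf7 and Lef1, and dKO animals had both genes floxed, Tcf7 fl/fl and Lef1 fl/fl, so that the transcription factors Tcf1 and Lef1 are lost after Cre acts. The mice had a C57BL/6 background, and the cells were sorted as GFP+ TCRβ+ CD62L-high CD44 low-to-medium CD8+, where the GFP gate keeps cells in which Cre has acted. The replicates of a genotype were pooled before peaks were found, so each genotype has 1 list, and the list headers give 83923734 fragments as kept for WT and 62242963 for dKO. No value per replicate exists in these lists, no test between genotypes was made, and every comparison describes the pools. Shares are given with 95% Wilson intervals, which cover counting over genes or sites only.

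Ribosomal proteins join ribosomal RNA in the small and the large ribosomal subunit, and nearly all of them are needed in every growing cell in equal amounts. Their mRNAs usually begin with a C followed by a run of C and T, the 5′ terminal oligopyrimidine tract, through which mTORC1 signalling sets their translation, and naïve T cells raise this output steeply when they are activated. Their promoters are known for sharp transcript starts, for few classical TATA boxes and for binding sites of general factors such as GABP, YY1 and Sp1.

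The cell type label was checked at marker promoters. All 7 of the CD8 T cell markers Cd8a, Cd8b1, Cd3e, Cd3g, Cd3d, Cd28 and Lck had a promoter site in the WT list and 6 of 7 had one in the dKO list, where Cd3d lacked one. Over all protein-coding genes, 44.8% had a promoter site in the WT list and 41.7% in the dKO list. The WT site of Cd3d was a weak one of 4.49-fold, at percentile 6.55, and a peak under 4-fold would not have been counted. None of the 7 markers of other cells that a sort could hold, among them Cd4, Itgax, Lyz2 and Ncr1, had a promoter site in either list, which is 0 of 7 in each.

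The sequences below show where the open site lies at the promoters with the strongest and the weakest shared WT site and with the largest fall and the largest rise in rank from WT to dKO cells. Each is the mm9 genome on the coding strand, 5′ to 3′, it ends 29 bases past the annotated start of transcript 001, and capitals mark the 21 bases centred on the WT summit, of which 12 fall inside the Rps20 stretch. The Rpl9 and Rps18 stretches are shorter because the divergent genes Lias and Vps52 begin just upstream of them.

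Rpl9 (chr5:65782653-65782735, minus strand): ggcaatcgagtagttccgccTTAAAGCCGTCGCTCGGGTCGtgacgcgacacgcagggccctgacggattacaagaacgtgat
Rpl35a (chr16:33056369-33056568, plus strand): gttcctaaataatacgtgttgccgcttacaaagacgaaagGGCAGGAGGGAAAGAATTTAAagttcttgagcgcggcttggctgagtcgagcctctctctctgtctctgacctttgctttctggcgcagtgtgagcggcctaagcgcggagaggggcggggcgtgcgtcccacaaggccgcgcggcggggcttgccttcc
Rps20 (chr4:3762783-3762982, minus strand): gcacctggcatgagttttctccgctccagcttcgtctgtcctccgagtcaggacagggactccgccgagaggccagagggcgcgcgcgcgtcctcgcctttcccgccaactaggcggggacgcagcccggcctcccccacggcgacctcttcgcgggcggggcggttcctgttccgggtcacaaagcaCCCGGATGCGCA
Rps18 (chr17:34092633-34092756, minus strand): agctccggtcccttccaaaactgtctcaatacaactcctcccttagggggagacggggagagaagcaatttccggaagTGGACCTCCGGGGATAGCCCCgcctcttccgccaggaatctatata

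The start of transcript 001 is base 54 of the Rpl9 stretch, base 171 of the Rpl35a and Rps20 stretches and base 95 of the Rps18 stretch. The WT and dKO summits lie at bases 31 and 35 of the Rpl9 stretch and at bases 199 and 188 of the Rps20 stretch. They lie at bases 51 and 172 of the Rpl35a stretch, 121 bp apart. The WT summit of Rps18 is base 89 of its stretch, and its dKO summit lies 126 bp away, upstream of the stretch. The GC content ran from 55.6% in the Rps18 stretch to 70% in the Rps20 stretch.

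Almost every ribosomal protein gene had an open promoter in both genotypes. A promoter site was found for 78 of 81 genes in the WT list (96.3%, 89.7 to 98.7%), where 44.8% of all protein-coding genes had one. The dKO list also held one for 78 of 81 genes, against 41.7% of all protein-coding genes. These were the same genes, since 78 of 81 had a site in both lists, against 41% of all protein-coding genes. No ribosomal protein gene had a site in the WT list alone or in the dKO list alone, which is 0 of 81 in each direction, with an interval of 0 to 4.53% that holds the shares of all protein-coding genes, 3.85% on the WT side and 0.724% on the dKO side. Those shares include the many genes without a site in either list. Among genes with a WT site, 0 of 78 ribosomal protein genes lacked a dKO site, against 862 of 10036 protein-coding genes. These counts were not adjusted for the strength of the sites. The genes carried a median of 4 annotated starts, compared with 2 over all protein-coding genes, so that their windows were wider in sum.

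The 3 genes without a site in either list were all paralogs that duplicate a widely used gene. Rpl10l, on chr12:67384368-67385388, is an intronless copy of Rpl10 that is used in the testis. Rpl3l, on chr17:24864774-24873094, is a form of Rpl3 used in skeletal and heart muscle. Rpl39l, on chr16:10170319-10175004, is a copy of Rpl39 that is used in male germ cells. The parent genes Rpl10, Rpl3 and Rpl39 all had a site in both lists.

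The other paralogs were open. Rps27l, a relative of Rps27 that p53 can induce, had a WT site of 601 bp on chr9:66793391-66793991 with a pileup, meaning the fragments stacked at the summit, of 71 and a 12.9-fold enrichment over the local background. Its strongest dKO site measured 212 bp, with a pileup of 41 and a 9.94-fold enrichment. Rpl36al, a copy of the X-linked Rpl36a, had pileups of 98 in WT and 58 in dKO cells, with 12.8-fold and 10.6-fold enrichment.

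Pools of unequal depth give enrichments on unequal scales, so the value was turned into a percentile within its own list, with 100 for the strongest site, and a gene was described by its strongest promoter site. The ribosomal protein genes ranked at a median of percentile 86.9 in the WT list (interval of the median 81.5 to 90.2) and 86.7 in the dKO list (81.4 to 89.6). The other protein-coding genes with a site in both lists had medians of 75.6 and 70.6. A quarter-to-quarter range of 67.3 to 94.1 in WT and of 70.3 to 92.7 in dKO cells covered the middle of the ribosomal protein genes, and their extremes were 37.4 and 99.5 in WT and 20.4 and 99.3 in dKO cells. The median enrichment was 14.1-fold in WT and 13.7-fold in dKO cells, beside 11.8-fold and 10.9-fold at the other genes. Percentile 90 or more was reached by 30 of 78 genes in the WT list, against 23.2% of all protein-coding genes with a site in both lists, and by 29 of 78 in the dKO list, against 19.7%. The small and the large subunit had median percentiles of 84.1 and 88.2 in WT and of 86.2 and 86.7 in dKO cells, and their difference was not tested.

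**Figure D1:**
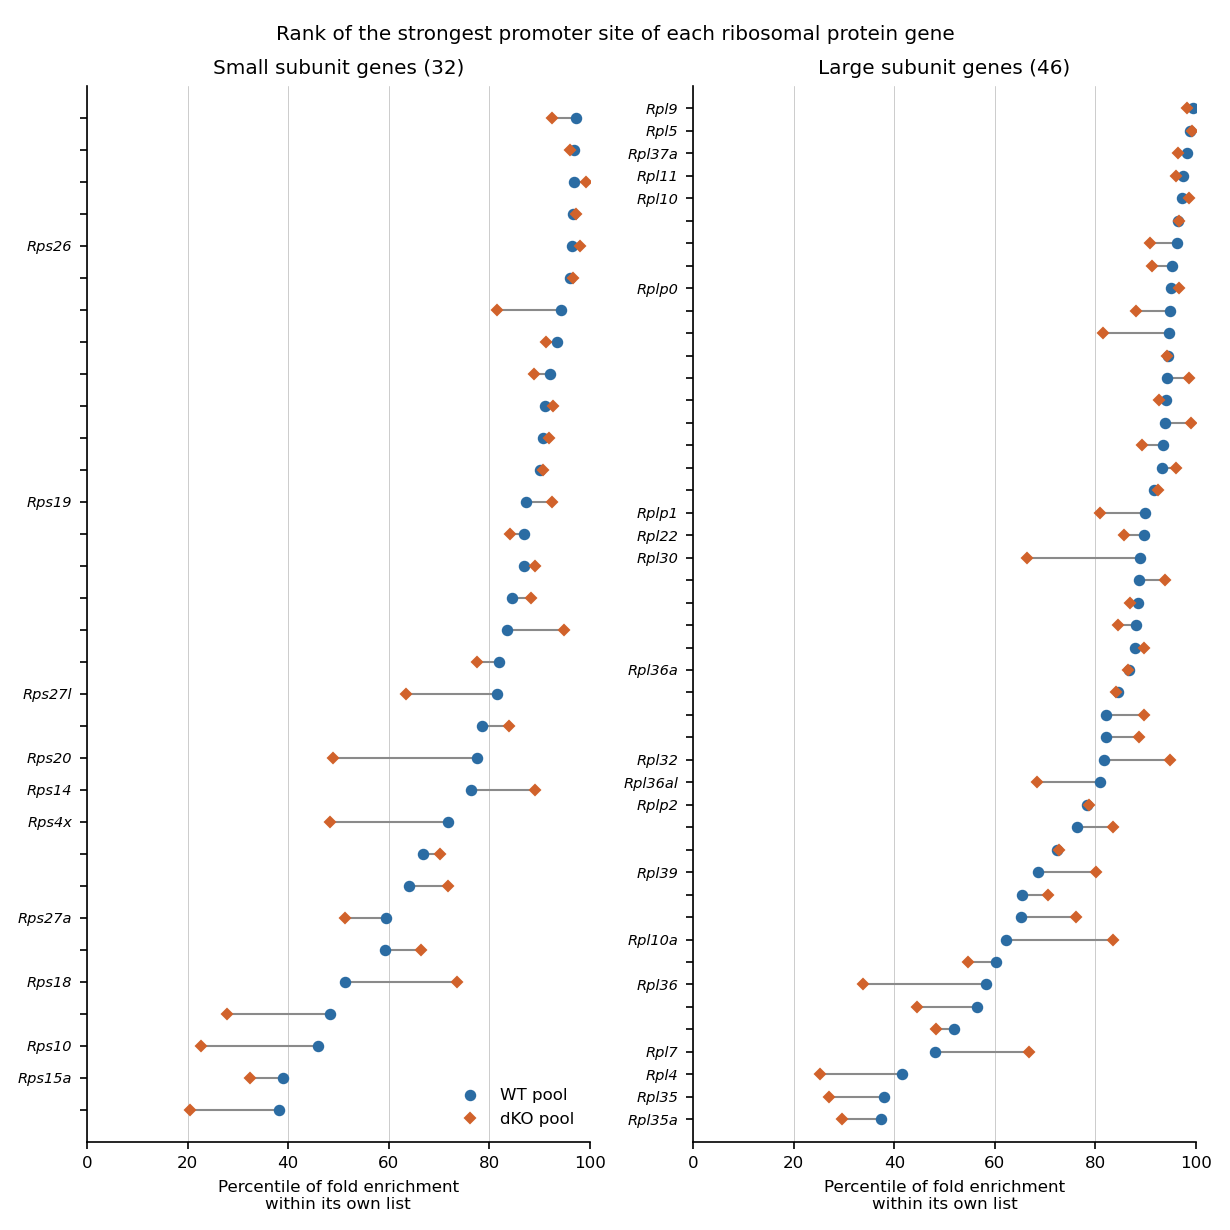
Percentile of fold enrichment within its own list (x axis, 0 to 100) for the strongest promoter site of 32 small subunit genes (left) and 46 large subunit genes (right). Circles are the WT pool and diamonds the dKO pool, with 1 value per pool, and genes run from the lowest to the highest WT percentile, from 37.4 for Rpl35a to 99.5 for Rpl9, with genes of the text labelled.

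The strongest WT sites belonged to large subunit genes. Rpl9, a protein near the sarcin-ricin loop of the subunit, led the list with a pileup of 174 and a 21.6-fold enrichment in WT cells and with 97 and 18.5-fold in dKO cells. Its WT site, chr5:65782626-65782913, covers the starts of Rpl9 and of the divergent gene Lias, a lipoic acid synthetase. Rpl5 and Rpl11 bring the 5S ribosomal RNA to the ribosome and hold back Mdm2 when ribosome assembly fails. Rpl5 reached 20-fold at a pileup of 140 in WT cells and 20.6-fold at 113 in dKO cells. Rpl37a stood between Rpl5 and Rpl11 in WT cells, at percentile 98.2, and at 96.5 in dKO cells. Rpl11 reached 18.2-fold at 123 in WT and 16.8-fold at 70 in dKO cells, so both members of the 5S RNP kept ranks above percentile 96 in each list. The X-linked Rpl10 came next in WT cells, at 97.3, and stood at 98.7 in dKO cells.

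Among the weakest shared WT sites were those of Rpl35a, Rpl35, Rps15a and Rpl4, at percentiles 37.4, 37.9, 39.1 and 41.5. These also lay in the lower part of the dKO list, at 29.7, 27.0, 32.4 and 25.3. Rpl35a, a gene mutated in some families with Diamond-Blackfan anemia, had a pileup of 47 in WT and 30 in dKO cells. Rpl4 had pileups of 43 and 25, at a summit 445 bp upstream of its annotated start in WT cells, in the window of the divergent gene Zwilch.

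Low fold enrichment did not always mean few fragments. Rpl35 had a WT pileup of 90, at percentile 76.8 of all WT pileups, and still an enrichment of only 7.16-fold. The local background that its pileup and fold enrichment imply was 11.7 fragments, compared with a median of 7.07 over the ribosomal protein sites. In dKO cells its pileup was 53 over a background of 7.52 fragments, against a median of 4.39. By contrast Rpl35a and Rpl4 were low by both measures, with WT pileups at percentiles 36.5 and 30.8 and backgrounds of 5.76 and 4.83 fragments. The 21 genes whose WT site had another WT site within 5000 bp showed a median of 10.5-fold enrichment, and the 57 without one showed 14.5-fold. The part of neighbouring sites in these ranks was not tested.

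**Figure D2:**
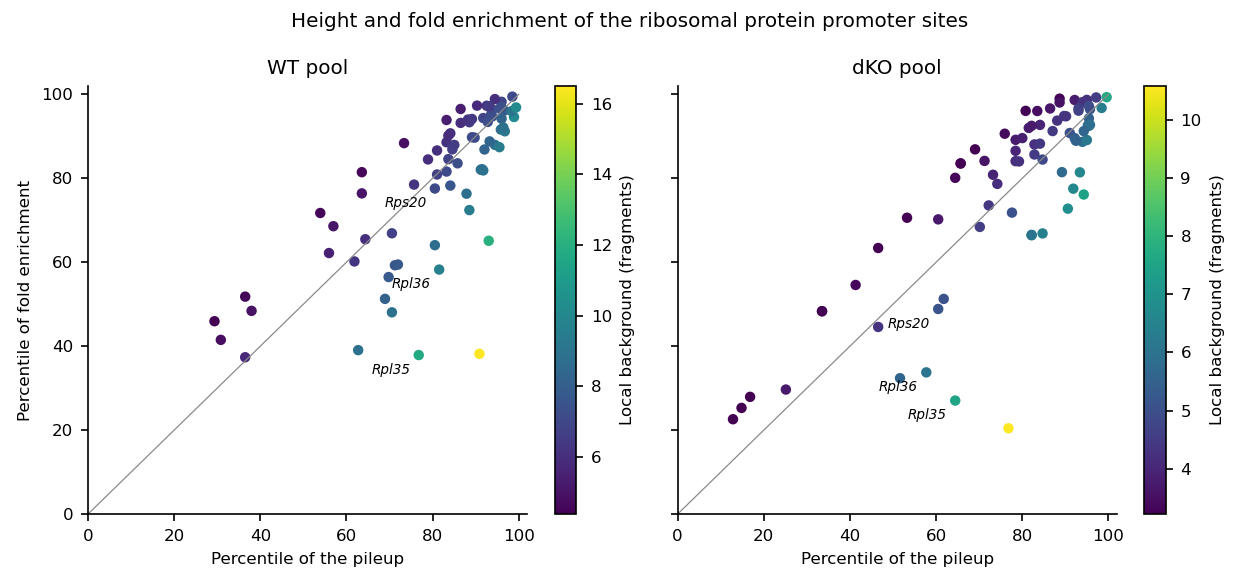
Percentile of the pileup (x axis) and percentile of fold enrichment (y axis) of the 78 ribosomal protein genes in the WT and the dKO pool, each point 1 gene, coloured by the local background in fragments. Points under the diagonal rank lower by fold enrichment than by pileup, as at Rpl35, with percentiles 76.8 and 37.9 in WT cells.

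Ranked by fold enrichment, the ribosomal protein promoters had a median difference near 0 between the pools. The lists differ in length, with 28472 WT and 24363 dKO sites, so 0 is not a known value for no change. The median difference, dKO minus WT, was -0.080 percentile points (interval of the median -2.82 to 1.28), while the other genes with a site in both lists had a median of -3.41 points. There were 38 genes ranked higher in dKO and 40 ranked higher in WT cells, whereas 35.7% of all protein-coding genes with a site in both lists ranked higher in dKO cells. Differences of at most 10 points held for 56 of 78 genes (71.8%), beside 60.2% of the other genes. A rise of more than 20 points was seen at 2 of 78 genes, against 2.33% of all such genes, and a fall of more than 20 points at 6 of 78, against 12.5%. Ranked by pileup instead, the median difference was -3.48 points and 26 of 78 genes ranked higher in dKO cells, next to -5.21 points and 24.8% over all protein-coding genes.

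**Figure D3:**
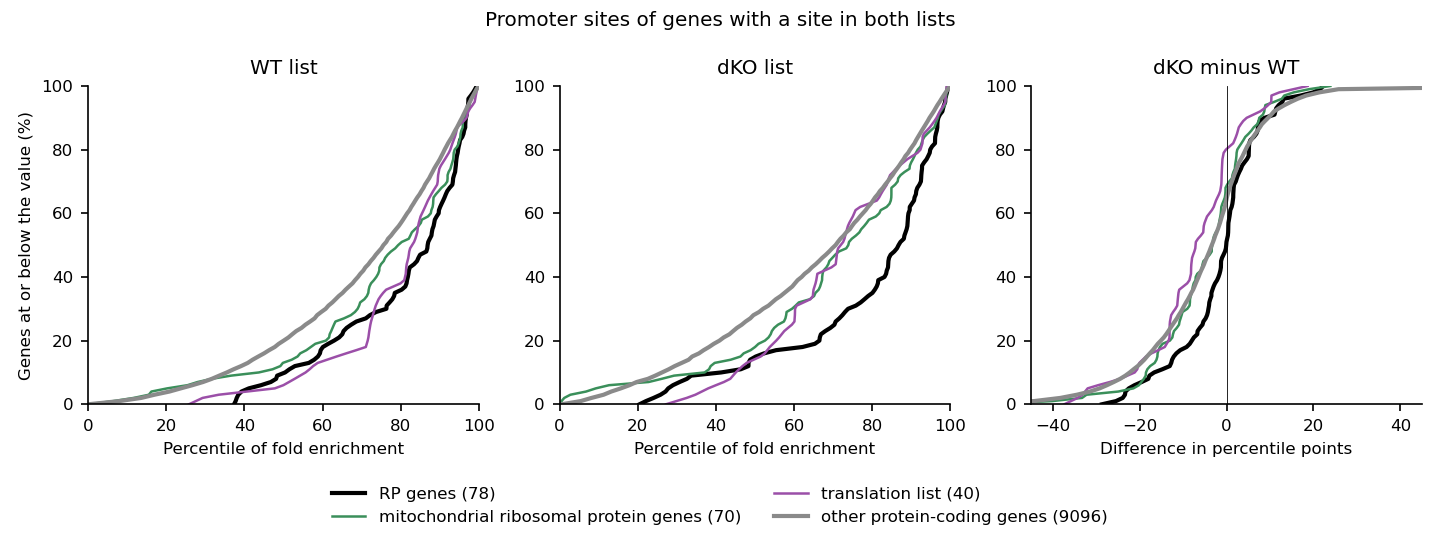
Share of genes at or below a value (y axis, %) against the WT percentile, the dKO percentile and the difference dKO minus WT in percentile points, for 78 ribosomal protein (RP) genes, 70 mitochondrial ribosomal protein genes, 40 genes of the translation list and 9096 other protein-coding genes with a site in both lists. The RP curve crosses the middle of the third panel at -0.080 points and that of the other genes at -3.41 points.

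The differences were also read by band of WT rank, where a site near the top of the list has little room to rise. The 30 ribosomal protein genes at percentile 90 or above in WT cells had a median difference of 0.026 points, beside -2.28 points at the other genes. In that band 15 of 30 ribosomal protein genes ranked higher in dKO cells, against 28.7% of the other genes. The 25 between 75 and 90 had a median of 0.399, beside -3.58 at the other genes, and the 15 between 50 and 75 one of 3.32, beside -5.86. The 8 genes between 25 and 50 had a median of -13.5 points, and only Rpl7 among them, 1 of 8, ranked higher in dKO cells. The other genes of that lowest band had a median of -5.55 points, and 36.2% of them ranked higher in dKO cells. No ribosomal protein gene lay under percentile 25 in WT cells, where 51.1% of the other genes had a dKO site.

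The falls over 20 points were spread over genes of both subunits. Rps20, a small subunit protein of the head, had a pileup of 97 and a 12.2-fold enrichment in WT cells and of 50 and 8.3-fold in dKO cells, and its rank went from 77.6 to 48.9. Rpl36 went from 58.3 to 33.8, with pileups of 99 and 48, and Rps4x, the X-linked form of Rps4, from 71.7 to 48.3, with pileups of 61 and 34. Rps10 went from 46.0 to 22.6. Rpl30, which binds its own transcript in yeast, went from 88.8 to 66.4, and by -11.1 points when ranked by pileup. At Rpl30 the WT list had 1 site of 904 bp, chr15:34372699-34373602, and the dKO list had 2 sites that overlap it, the stronger one 230 bp wide.

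The largest rises were those of Rps18, Rpl10a, Rpl7, Rpl32 and Rps14. Rps18 had a pileup of 78 and an 8.58-fold enrichment in WT cells and of 60 and 11.3-fold in dKO cells, which took its rank from 51.3 to 73.5. Its local background was 8.21 fragments in WT and 4.38 in dKO cells, and by pileup its rank differed by only 3.26 points. Rpl10a went from 62.2 to 83.5, with pileups of 63 and 54, and by 9.75 points when ranked by pileup. Rpl7 had nearly as many fragments in the shallower dKO pool, 76, as in the WT pool, 80, and went from 48.1 to 66.9. Rpl32 went from 81.6 to 94.8, and Rps14, whose loss of 1 copy underlies the anemia of the 5q- syndrome, from 76.3 to 89.1. Ranked by pileup, these 2 genes differed by 6.94 and 7.12 points.

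Further members are given here for their known roles. Rpl22, which binds RNA and is needed for αβ T cell development, had pileups of 121 and 73 and ranked at 89.7 in WT and 85.7 in dKO cells. Rps19, the gene most often mutated in Diamond-Blackfan anemia, had pileups of 146 and 102 and ranked at 87.4 and 92.6, and Rps26, another gene of that disease, at 96.5 and 98.1. Rps27a, whose protein is made as a fusion with ubiquitin, ranked at 59.5 and 51.3. The stalk proteins, which recruit the translation GTPases, ranked at 95 and 96.7 for Rplp0, at 89.8 and 80.9 for Rplp1 and at 78.3 and 78.7 for Rplp2. Of the 4 X-linked genes, Rpl10 and Rpl36a kept their ranks, the latter at 86.6 in both lists. Rpl39 stood at 68.6 in WT and 80.1 in dKO cells, whereas Rps4x was among the largest falls, so 2 of the 4 ranked higher in dKO cells.

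Related gene lists are given beside these ranks. Mitochondrial ribosomal protein genes, which build the separate ribosome of the mitochondrion, had a promoter site for 76 of 76 genes in WT and for 70 of 76 in dKO cells. Their ranks had a median of 79.3 in WT and 73.9 in dKO cells, with a median difference of -3.28 points (interval of the median -7.70 to -1.19), near the -3.41 of the other genes, and 22 of 70 ranked higher in dKO cells. The other list, called the translation list, holds elongation factors, initiation factors and further genes such as Fbl, Ncl, Npm1 and Hnrnpa1. It had a site for 40 of 40 genes in each pool. It had medians of 82.9 and 71.9, a median difference of -7.14 points (-11.2 to -1.50) and 8 of 40 genes higher in dKO cells. Both intervals overlap that of the ribosomal protein genes, and the differences between lists were not tested. The listed subunits of initiation factor eIF3 differed widely, from -37.4 points at Eif3i to 2.33 at Eif3k, and Eif3k alone among them ranked higher in dKO cells. Eif3i went from 80.8 to 43.5, Eif3g from 89.4 to 57.5 and Eif3k from 96.8 to 99.1. Fau, which encodes a ribosomal protein fused to a ubiquitin-like protein, went from 71.1 to 60.1.

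Most summits lay upstream of the nearest annotated start, with 13 of 78 downstream in WT and 17 of 78 in dKO cells. The median summit was 33 bp upstream in WT (-33 bp) and likewise in dKO cells (-33 bp), beside -47 bp and -50 bp at the other genes. In WT cells 61 of 78 summits (78.2%) were within 100 bp of a start, and in dKO cells 62 of 78 (79.5%), against 64.2% and 63.2% at the other genes, which have fewer annotated starts to be near. Measured from 1 start per gene, a choice made after seeing the data, 54 of 78 WT summits (69.2%) and 56 of 78 dKO summits (71.8%) were within 100 bp, against 53.9% and 53.1% at the other genes. The outermost summits were 445 bp upstream at Rpl4 and 41 bp downstream at Rps19 in WT cells. Sites were as wide as elsewhere, with a median WT width of 303 bp and a median dKO width of 275 bp, beside 305 bp and 255 bp at the other genes.

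**Figure D4:**
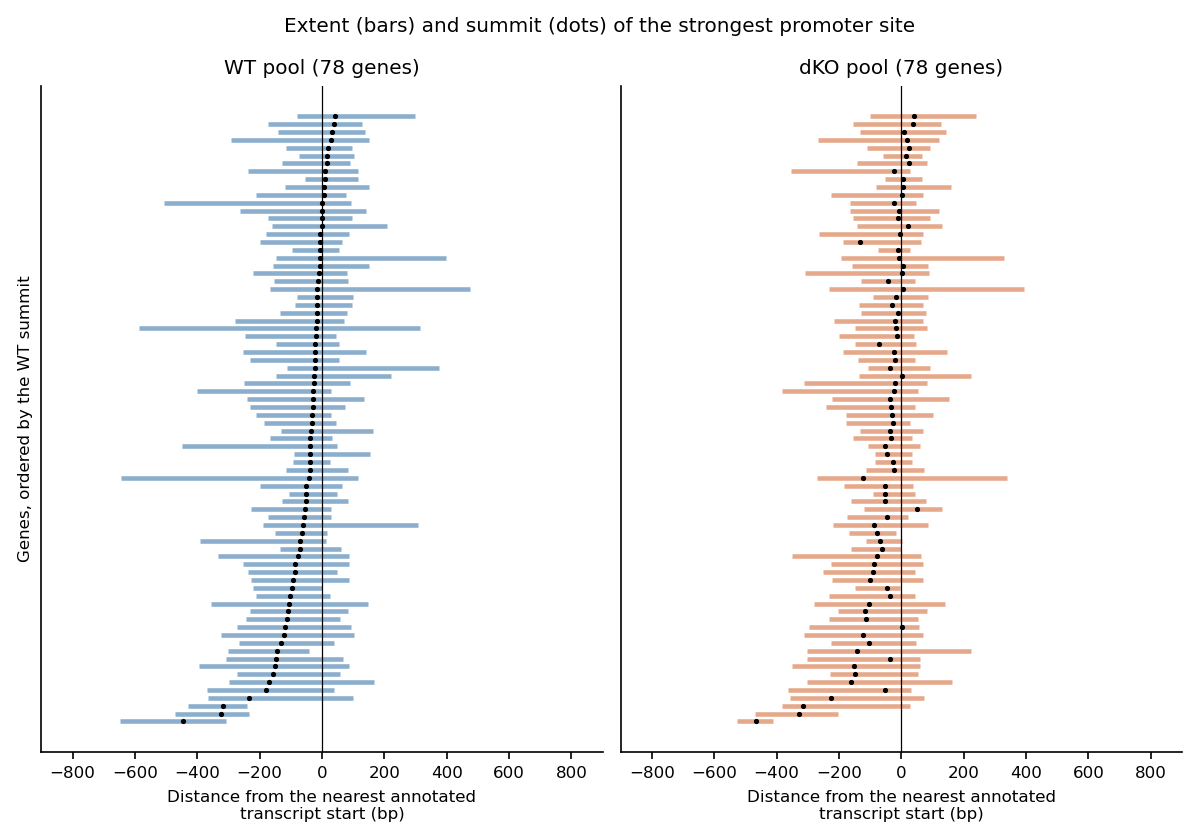
Extent (bars) and summit (dots) of the strongest promoter site of 78 genes in the WT and the dKO pool, against the distance from the nearest annotated transcript start in bp, upstream to the left. Genes have the same order in both panels, and the median summit lies at -33 bp in each.

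The summits themselves were nearly the same in both pools. The WT and the dKO summit of a gene were a median of 7 bp apart, compared with 11 bp at the other genes, and 63 of 78 (80.8%) were at most 20 bp apart, compared with 68.6%. Distances over 100 bp occurred at 5 of 78 genes (6.41%), compared with 9.59% over all protein-coding genes. These were Rps27a, where the summits were 300 bp apart inside a WT site of 761 bp, Rpl13a at 129 bp, Rps18 at 126 bp, Rpl35a at 121 bp and Rpl37 at 112 bp. In all 78 genes the WT and dKO sites overlapped, as they did in 8755 of 9174 protein-coding genes with a site in both lists.

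Some genes had more than 1 site, counted over all their annotated starts, namely 10 genes in WT and 12 in dKO cells (12.8% and 15.4%). Among all protein-coding genes with a site in both lists, 23.8% and 20.2% did. Rps18, Rpl13a, Rps19, Rpl18, Rpl24, Rpl10 and Rpl5 had 2 in each list. At Rps18, Rpl13a, Rpl18 and Rpl24 these were sites of separate starts, as at Rpl24 with WT summits at chr16:55966423 and chr16:55973893. The weaker sites of Rps18 and Rpl13a also lay within 1000 bp of a start of B3galt4 and of Flt3l. Rplp2, Rpl36al, Rps27l, Rpl30 and Rps25 had 1 site in WT and 2 in dKO cells, and in 5 of 5 both dKO sites overlapped the single, wider WT site. The reverse held for Rpl32, where a single dKO site of 413 bp overlapped 2 WT sites. In the WT list 2 of 88 sites overlapped no dKO site (2.27%, 0.625 to 7.91%), against 15.9% of all WT promoter sites. They were a second site of Rpl12 with a pileup of 44 and a second site of Rpl38 with a pileup of 41, at percentiles 14.4 and 19.2. In the dKO list 0 of 90 sites overlapped no WT site (0 to 4.09%), against 4.57% of all dKO promoter sites. These shares were not adjusted for the strength of the sites. At 13 of 78 genes the strongest WT site also lay within 1000 bp of the start of another protein-coding gene, as at Rpl9 with Lias, Rps18 with Vps52, Rpl7a with Med22, Rps25 with Trappc4 and Rps28 with Ndufa7, and such a site cannot be assigned to either gene. The same share over all protein-coding genes was not counted, so this number is not read as high or low. The genome holds many processed copies of ribosomal protein mRNAs, but no copy with at least 90% identity over 80% of the window of 100 bp on each side of the summit was found for any gene, and a shorter one over the summit was found for Rpl29 alone.

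The bases around the summits were less rich in G and C than at other promoter sites. Over 100 bp on each side, the median GC content was 59.2% in both lists, beside 62.7% over all 11170 promoter sites of WT and 62.2% over all 10042 of dKO cells. The ratio of observed to expected CpG was higher, with medians of 0.916 and 0.903 beside 0.804 and 0.805.

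Short motifs were searched on both strands within 100 bp of each summit, and a match is only a match of letters. The element TCTCGCGA, known from promoters without a TATA box, was in 15 of 88 WT sites (17.0%, 10.6 to 26.2%), compared with 2.16% of all WT promoter sites. In the dKO list it was in 14 of 90 (15.6%, 9.50 to 24.4%), compared with 2.36%. CCGGAAG, a sequence that Ets factors such as GABP bind, was in 28 of 88 WT sites (31.8%, 23.0 to 42.1%) and in 29 of 90 dKO sites (32.2%, 23.5 to 42.4%), compared with 17.1% and 17.9% of all promoter sites. TATAAA was in 5 of 88 WT sites (5.68%, 2.45 to 12.6%, all sites 2.98%) and in 7 of 90 dKO sites (7.78%, 3.82 to 15.2%, all sites 3.26%), so that only the dKO interval lay above the share of all promoter sites. Within 50 bp of the summit both intervals lay above that share, with 3 of 88 WT sites (3.41%, 1.17 to 9.55%, all sites 1.15%) and 6 of 90 dKO sites (6.67%, 3.09 to 13.8%, all sites 1.37%). Within 100 bp of transcript starts it was at 10 of 78 genes in both lists (12.8%, 7.12 to 22.0%), above 3.18% of all genes with a WT site and 3.28% of those with a dKO site. In the summit window the remaining motifs had intervals that held the share of all promoter sites in both lists. AAGATGG, bound by YY1, was in 8 of 88 WT and 9 of 90 dKO sites (9.09% and 10%, all sites 5.88% and 6.01%). Around transcript starts its share was 12 of 78 in both lists (15.4%, 9.03 to 25%), above 6.82% and 7.03% of all genes with a site, so the reading of this motif depends on the window. TGACGT, the core bound by CREB, was in 15 of 88 and 14 of 90 (17.0% and 15.6%, all sites 11.8% and 12.3%). The Sp1 sequence GGGCGG was in 47 of 88 and 51 of 90 (53.4% and 56.7%, all sites 55.7% and 55.8%). Neither of the last 2 motifs had an interval clear of the share of all promoter sites. CCAAT was in 27 of 88 and 28 of 90 (30.7% and 31.1%, all sites 32.6% and 34.4%). CACGTG, the E-box of Myc and its relatives, was in 7 of 88 and 5 of 90 (7.95% and 5.56%, all sites 9.15% and 9.18%). The NRF1 palindrome CGCATGCG was in 4 of 88 and 4 of 90 (4.55% and 4.44%, all sites 3.93% and 4.17%). CCGGAAG and AAGATGG can share the letters AAG, and both were in 1 of 88 WT sites.

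ATCAAAG, the core that Tcf1 and Lef1 bind, was in 1 of 88 WT sites (1.14%, 0.201 to 6.16%) and in 1 of 90 dKO sites (1.11%, 0.196 to 6.03%), beside 1.71% and 1.53% of all promoter sites. The WT match was at the second site of Rpl12 and the dKO match at Rps18, where the summit differed between the pools.

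**Figure D5:**
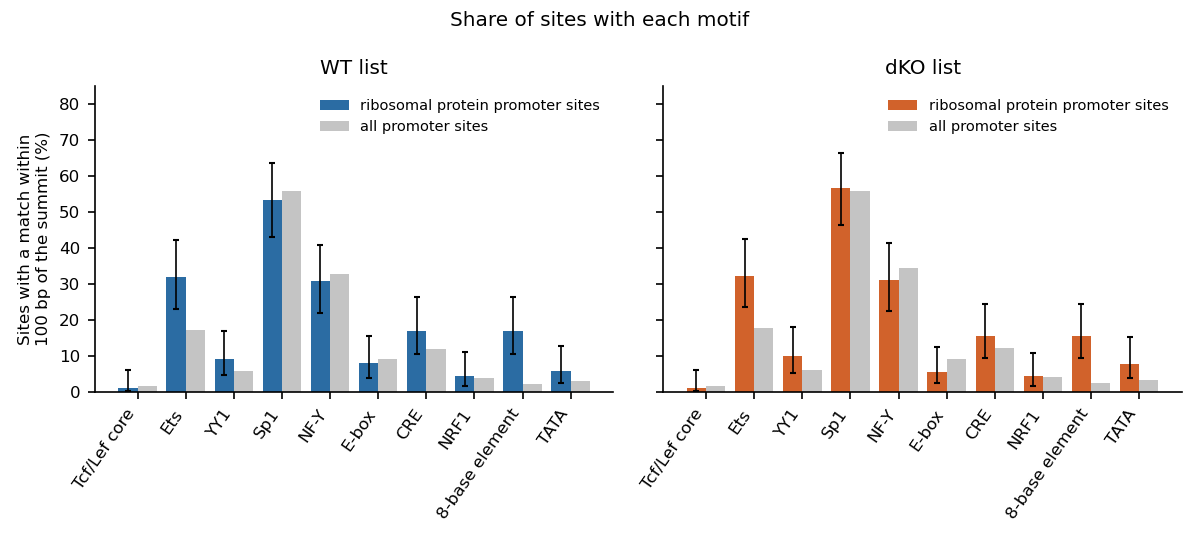
Share of promoter sites (y axis, %) with a match to each of 10 motifs within 100 bp of the summit, in the WT and the dKO list, for ribosomal protein promoter sites (coloured, with 95% Wilson intervals) and for all promoter sites (grey). The element of 8 bases stands at 17.0% and 2.16% in the WT list and the Ets motif at 31.8% and 17.1%.

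The stretches that follow, again on the coding strand of mm9, come from 5 of the WT sites with the element TCTCGCGA among those whose stretch holds at most 30 annotated untranslated bases, with the match, which reads TCGCGAGA on the other strand, in capitals.

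Rpl7a (chr2:26766249-26766308, plus strand): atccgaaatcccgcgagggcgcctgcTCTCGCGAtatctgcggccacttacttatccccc
Rps6 (chr4:86503287-86503346, minus strand): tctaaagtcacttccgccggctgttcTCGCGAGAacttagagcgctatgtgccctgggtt
Rpl26 (chr11:68715016-68715075, plus strand): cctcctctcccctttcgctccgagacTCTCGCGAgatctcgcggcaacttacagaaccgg
Rpl23a (chr11:77997083-77997142, minus strand): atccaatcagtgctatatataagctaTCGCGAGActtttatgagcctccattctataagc
Rps15a (chr7:125259694-125259753, minus strand): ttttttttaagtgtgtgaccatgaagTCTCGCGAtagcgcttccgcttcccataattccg

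The match was 0.5 bp from the WT summit at Rps6, 14.5 bp at Rpl7a, 18.5 bp at Rpl26 and 88.5 bp at Rps15a, all toward the gene, and at -41.5 bp at Rpl23a. Over all 15 WT sites with the element the median distance was 19.5 bp. These genes ranked from 39.1 at Rps15a to 94.1 at Rpl7a in WT cells, so the element was found at weak and at strong sites alike. Over the 14 genes whose strongest WT site held it, the median WT percentile was 86.9, and over the 64 without it 87.0. Their median differences, dKO minus WT, were 2.51 and -0.562 points.

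The Ets sequence CCGGAAG, in capitals, was in the stretches below, shown for the 4 highest WT ranks among sites whose stretch passes the same limit on untranslated bases, which leaves out Rpl11, Rpl15, Rpl34 and Rpl31.

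Rps6 (chr4:86503330-86503388, minus strand): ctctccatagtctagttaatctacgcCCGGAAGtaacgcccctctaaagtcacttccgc
Rpl26 (chr11:68715046-68715104, plus strand): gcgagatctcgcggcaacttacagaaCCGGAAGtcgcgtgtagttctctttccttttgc
Rps25 (chr9:44215698-44215756, plus strand): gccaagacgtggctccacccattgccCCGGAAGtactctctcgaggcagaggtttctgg
Rplp1 (chr9:61762454-61762512, minus strand): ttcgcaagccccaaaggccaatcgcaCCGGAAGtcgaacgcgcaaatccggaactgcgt

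At Rps25 the match was centred on the WT summit, at 0 bp, and the median distance over the 28 WT sites with it was 30.5 bp. The 26 genes with it at their strongest WT site ranked at a median of 82.5 in WT and 79.8 in dKO cells, and the 52 without it at 88.2 and 88.8. Rps6 and Rpl26 held both this sequence and TCTCGCGA.

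The start sequences themselves were read at the annotated starts, which are not mapped mRNA ends. The first start is that of transcript 001, which 58 of 81 genes have, and of the longest transcript for the others, Rpl14 among them. At this start, a C followed by at least 4 C or T was found for 4 of 81 genes (4.94%, 1.94 to 12%) and for 2.02% of all protein-coding genes. Over any annotated start of a gene it was found for 25 of 81 (30.9%, 21.9 to 41.6%) and for 6.16% of all protein-coding genes, which have fewer starts. A run of 8 or more C and T at or within 5 bp of any start was found for 52 of 81 genes (64.2%) and for 22.3% of all protein-coding genes. At the first start it was found for 20 of 81 genes (24.7%) and for 9.38% of all protein-coding genes. The stretches below, from 30 bases before to 29 after this start, show 2 of the 4, with the run in capitals. The run is 14 bases long at Rpl14 and 7 at Rps21.

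Rpl14 (chr9:120480604-120480663, plus strand): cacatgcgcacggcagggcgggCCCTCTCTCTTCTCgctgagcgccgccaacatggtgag
Rps21 (chr2:179992052-179992111, plus strand): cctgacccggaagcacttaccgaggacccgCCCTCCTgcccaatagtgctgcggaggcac

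At Rpl14 and Rps21 the WT summits lay 33 bp and 85 bp upstream of the nearest start (-33 bp and -85 bp).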

How the data were processed

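DNase-seq was analysed in 3 WT and 2 dKO replicates. The authors aligned reads to mm9 (Bowtie2 2.2.5 in the submitters' notes), kept uniquely mapped reads, pooled the replicates of each genotype and found peaks with MACS2 2.1.1.20160309 without a control library. Per the file headers each run was given 2 files of fragments, and of 167847468 WT and 124485926 dKO fragments it kept 83923734 and 62242963, with a redundant rate of 0.5, at most 1 duplicate and a local background over 10000 bp. The rate was 0.5 in both pools, each with 2 files, and whether it reflects duplicates within the libraries was not tested. That the kept fragments are the unique fragments of each pool was assumed.

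Pileup, as deposited, is a signal counted in fragments. Fold enrichment, as deposited, divides the pileup by the local background (a ratio), and the authors' -log10 p and -log10 q are MACS2's test of it.

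Genes and starts came from the gencode annotation of mm9, sequences from that genome. Each gene took its strongest site, and its local background is (pileup + 1) divided by fold enrichment, minus 1. Intervals of medians are binomial. Copies were searched with blastn 2.17.0. Genes were named for lacking a site, for the 5 highest and 5 lowest WT ranks, the 5 largest differences each way, 2 or more sites, or their role, and some of these are not reported here. Members and lists were chosen with earlier results of these data known. Python 3.11.15, numpy 2.4.6, pandas 2.3.3, scipy 1.17.1, pysam 0.24.0, samtools 1.23.1 and matplotlib 3.10.9 were used, and the steps were tested on simulated data. Alternatives were the criteria, window, starts, symbols, chromosomes and ranking.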

Additional observations from a re-analysis of the deposited data

How the results depend on the processing

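No paired analysis was possible because each genotype has 1 pooled list and no test was made. For the same reason leaving out a replicate could not be done. The WT pool is the deeper one, and its fold enrichment and site number are not on the scale of the dKO pool. Of 120 values under an alternative, 107 stayed within 1.5 times a count or within the interval of a share or median, and 13 did not. At a minimum of 8-fold, 72 ribosomal protein genes had a WT site, 69 had a dKO site and 69 had both. Some genes then had a site in the WT list alone. With a minimum of 8-fold, the WT median percentile became 77.6 and the dKO one 79.9, while ranks among promoter sites alone gave 78.8 and 80.2, where both settings also change the list that is ranked. Ranked by pileup, the median difference was -3.48 points, and the cause was not tested. Within 50 bp of the summit, a window of fewer bases, ATCAAAG was in 0% of WT and 0% of dKO sites, AAGATGG in 2.27% and 3.33%, GGGCGG in 34.1% and 34.4% and CCAAT in 21.1% of dKO sites. Around transcript starts TATAAA was in 12.8% of the genes with a WT site (7.12 to 22.0%), beside 3.18% of all such genes, and AAGATGG in 15.4% (9.03 to 25%), beside 6.82%, so that both intervals then lay above the share of all genes. For the named genes with the largest differences, 15 of 98 values differed by more than 1.5 times and none changed sign. With a minimum of 8-fold, Rps20 differed by -51.7 points, Rps4x by -41.8, Rpl30 by -40.5, Rps18 by 42.2, Rpl10a by 40.2, Rpl7 by 36.0, Rpl32 by 24.6 and Rps14 by 24.1. Ranked by pileup, Rpl30 differed by -11.1 points, Rps18 by 3.26, Rpl10a by 9.75, Rpl32 by 6.94 and Rps14 by 7.12. Rps18 differed by 10.5 points by p and Rpl32 by 21.0 among promoter sites, and the causes were not tested.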
